A study of Mus musculus with 4 samples.

Results

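The expression of 39 genes of Kupffer cells and recruited macrophages was examined in the liver of aP2-SREBP-1c mice. They are a list of known markers of these cells, out of 19938 genes that were represented by probe sets with 1 gene symbol. They comprised 7 markers of resident Kupffer cells, 4 markers of recruited monocytes and macrophages, 5 markers of lipid-associated macrophages and 23 genes common to macrophages. For each gene, the probe set with the highest mean was taken, and each of the 37 genes found had 1 such probe set. Spp1, which encodes the secreted matrix protein osteopontin, and Slc11a1, a metal transporter of the phagosome, had no matching probe set in the annotation used here and were not analysed.

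Livers came from 4 male mice of the transgenic line C57Bl6-TgN aP2-HA-hSREBP-1c-NT, called aP2-SREBP-1c, aged 24 weeks by the sample labels. In this line, the aP2 promoter drives the transcriptionally active N-terminal part of human SREBP-1c in adipocytes, and the fatty liver accompanies a loss of adipose tissue and systemic insulin resistance. From each liver, 150 ng of RNA was applied to 1 array (Mouse Gene 1.0 ST), and all 4 mice form 1 group. Livers of C57Bl6 and alb-SREBP-1c mice were not analysed here, so that levels and their spread between 4 mice are described without a test.

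Kupffer cells are the resident macrophages of the liver. They sit in the sinusoids, where they clear bacteria, complement-coated particles, aged red blood cells and cell debris, and they are largely maintained by self-renewal. Monocytes from the blood can enter the injured or steatotic liver, and some of their progeny become lipid-associated macrophages, which express genes for lipid sensing and matrix degradation.

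Values are log2 expression values, on which a difference of 1 is a 2-fold difference. Since probe sets differ in their affinity, levels are not ranked between genes. Expression was taken as above background if it passed the background limit of every array. This limit was the 95th percentile of the 1212 olfactory or vomeronasal receptor probe sets, taken to have no target in liver, and lay between 5.33 and 5.52. Among the 12265 genes above background, the median SD between mice was 0.15. The array of mouse 1 differed most from the others, and its values were compressed. When genes were divided by mean level into 10 classes of equal size, mouse 1 had a median difference of 0.13 in the lowest class and of -0.23 in the highest class relative to mice 2 to 4. Transcripts of pancreatic acinar cells were higher in mice 1 and 4 than in mice 2 and 3, and the median difference of each mouse from the remaining ones was 1.30, -1.53, -1.07 and 1.16.

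Of the 37 macrophage genes measured, 32 were above background, among them all 7 resident markers, 1 of 4 recruited markers, 3 of 4 lipid-associated markers and 21 of 22 common genes. Over all genes, 61.5% were above background. The 5 genes that did not pass were Ccr2, Itgam, Itgax, Gpnmb and Fcgr1. Cd14, the co-receptor for bacterial lipopolysaccharide, passed by the smallest margin, with a mean of 5.51 ± 0.09 (SD, n = 4 mice), which lay 0.12 above the mean limit. Clec4f, a lectin that marks Kupffer cells in the mouse, was well above it at 8.55 ± 0.18 (SD, n = 4 mice). RNA of whole liver was measured, so that fewer macrophages and less RNA per macrophage cannot be told apart.

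**Figure D1:**
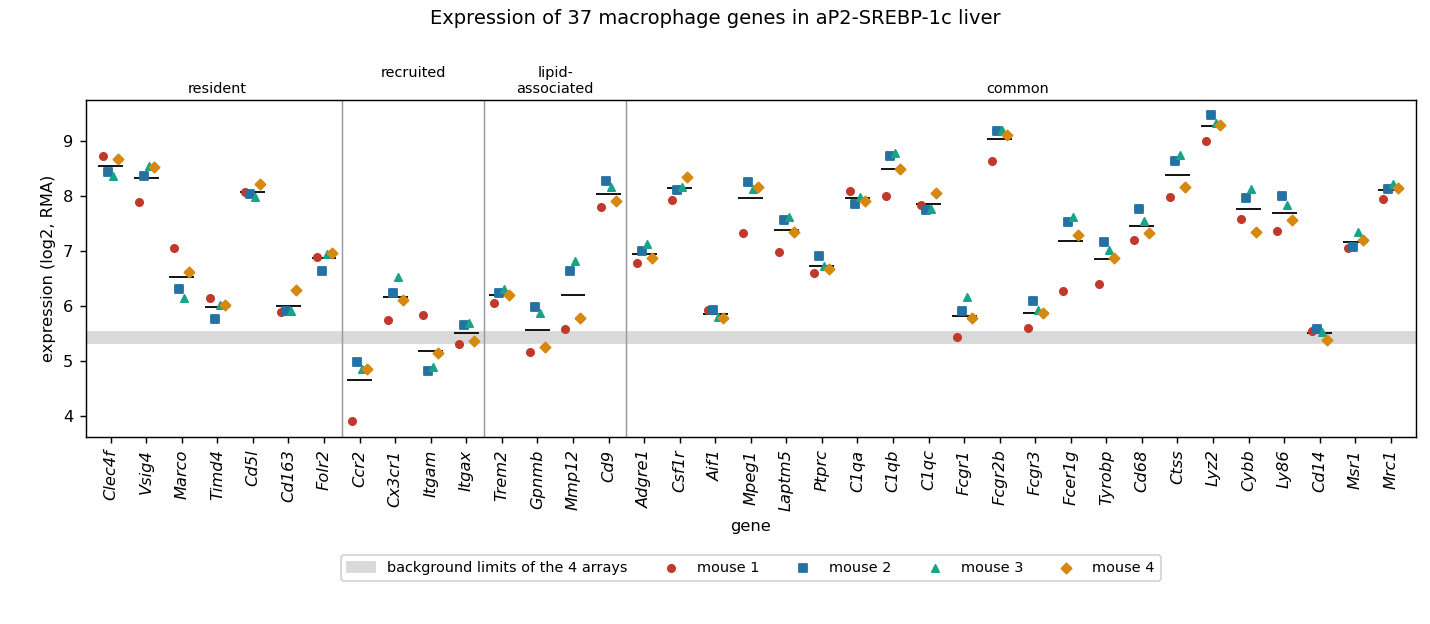
Expression of 37 macrophage genes in aP2-SREBP-1c liver. The vertical axis gives the log2 RMA value of each of the 4 mice, black lines mark the mean, and the grey band spans the background limits of the arrays. All 7 resident markers lie above the band in every mouse, whereas Ccr2 lies below it in every mouse.

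The range from the lowest to the highest mouse exceeded 1.5-fold in 12 of the 32 genes above background (37.5%), compared with 12.9% of all genes. These were the resident markers Vsig4 and Marco, the recruited marker Cx3cr1, the lipid-associated marker Mmp12, and the common genes Mpeg1, Laptm5, C1qb, Fcer1g, Tyrobp, Ctss, Cybb and Ly86. Fcer1g and Mmp12 had a range of more than 2-fold, as had 1.13% of all genes. Much of this spread involved mouse 1. Without mouse 1, 3 of 34 genes above background exceeded 1.5-fold, namely Mmp12, Ctss and Cybb, compared with 2.71% of all genes. A mouse stood apart from the other 3, which lay close together, in 3 of the 32 genes (Cd163 in mouse 4, Mpeg1 and Fcgr2b in mouse 1), compared with 5.75% of all genes.

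Promoters are shown for 5 genes that stand for the patterns between mice: Marco, which was highest in mouse 1, Fcer1g and Mmp12, which had the largest ranges, and the neighbours C1qb and C1qc, which differed from each other. The sequences are the 250 bases before the annotated start in RefSeq (build GRCm38.p6), read 5′ to 3′ on the strand of the gene. Capitals mark GAGGAA or its reverse complement TTCCTC, the core letters bound by PU.1, a transcription factor required for macrophages.
Marco promoter, chr1:120505025-120505274, minus strand: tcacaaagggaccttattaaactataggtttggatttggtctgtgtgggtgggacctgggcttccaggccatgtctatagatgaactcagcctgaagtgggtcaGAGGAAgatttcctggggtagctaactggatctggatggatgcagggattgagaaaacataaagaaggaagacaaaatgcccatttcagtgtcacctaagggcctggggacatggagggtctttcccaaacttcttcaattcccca
Fcer1g promoter, chr1:171234350-171234599, minus strand: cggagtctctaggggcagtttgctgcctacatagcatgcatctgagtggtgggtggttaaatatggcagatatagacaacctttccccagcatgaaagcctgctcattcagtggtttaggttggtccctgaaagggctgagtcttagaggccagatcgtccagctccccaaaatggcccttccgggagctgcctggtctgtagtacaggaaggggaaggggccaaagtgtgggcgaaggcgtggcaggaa
Mmp12 promoter, chr9:7344147-7344396, plus strand, the first of 2 starts listed: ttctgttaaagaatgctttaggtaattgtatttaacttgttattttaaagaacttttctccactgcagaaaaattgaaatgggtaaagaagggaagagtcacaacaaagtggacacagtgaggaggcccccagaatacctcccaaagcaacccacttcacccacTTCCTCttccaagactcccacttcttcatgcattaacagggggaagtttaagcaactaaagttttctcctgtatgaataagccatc
C1qb promoter, chr4:136886201-136886450, minus strand: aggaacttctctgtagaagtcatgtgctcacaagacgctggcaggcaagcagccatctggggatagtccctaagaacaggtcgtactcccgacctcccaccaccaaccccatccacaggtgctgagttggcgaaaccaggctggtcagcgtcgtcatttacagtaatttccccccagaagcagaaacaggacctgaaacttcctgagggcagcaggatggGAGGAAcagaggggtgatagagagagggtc
C1qc promoter, chr4:136892915-136893164, minus strand: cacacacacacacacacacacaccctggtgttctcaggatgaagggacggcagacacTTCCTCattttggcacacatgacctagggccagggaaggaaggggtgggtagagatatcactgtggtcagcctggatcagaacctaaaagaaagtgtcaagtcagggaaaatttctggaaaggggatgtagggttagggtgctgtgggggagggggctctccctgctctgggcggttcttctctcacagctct
The marked letters began 146 bases before the start in Marco, 86 in Mmp12, 30 in C1qb and 193 in C1qc, and Fcer1g had no match in this window. Marco and C1qb, whose values in mouse 1 lay on opposite sides of the other mice, both held these letters.

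Promoters of 33 members were found in the table, and those of Adgre1, Csf1r, C1qa, Tyrobp, Cd14 and Msr1 were not. GAGGAA was present on either strand in the promoter of 18 of the 33 members (54.5%) and of 25.9% of all 27025 genes. Counted by promoter, 19 of 38 promoters of members held it, compared with 23.3% of all 32851 promoters. By class, it was found in Vsig4, Marco and Cd5l of the 7 resident markers and in Itgam of the 4 recruited markers. Of the 5 lipid-associated markers, Trem2, Spp1 and Mmp12 held it. All other matches were in the common genes Aif1, Laptm5, Ptprc, C1qb, C1qc, Fcgr1, Fcgr3, Cd68, Ctss, Slc11a1 and Mrc1. The longer strings AGAGGAA and GAGGAAGT, which contain it, were present in 9 and 3 members and in 9.85% and 2.79% of all genes. CACATG, the core of the M-box, was found in 7 members and 13.8% of genes, and TGACTCA, which AP-1 binds, in 4 members and 5.16% of genes. The E-box CACGTG (6.86% of genes) and the C/EBP palindrome TTGCGCAA (0.185% of genes) were found in no member. A match describes these letters only and is not a binding site.

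The resident markers were above background in every mouse, and no mouse was the lowest or the highest in all of them. Clec4f was measured at 8.73, 8.44, 8.36 and 8.68 in mice 1 to 4. Cd5l, a secreted macrophage protein also known as AIM, had the smallest spread of the class, with values of 8.08, 8.04, 7.99 and 8.21 and an SD of 0.09. Both genes had their lowest value in mouse 3, and their ranges were 1.30-fold and 1.17-fold. Timd4, a receptor for phosphatidylserine on dying cells that marks long-lived Kupffer cells, was measured at 6.15, 5.76, 6.02 and 6.02. Folr2, the folate receptor beta, was measured at 6.90, 6.64, 6.95 and 6.97. Timd4 and Folr2 were lowest in mouse 2, within ranges of 1.31-fold and 1.26-fold.

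Marco and Vsig4, both of which bind particles from the blood, had the largest ranges among the resident markers in the deposited values, in opposite directions. Marco, a scavenger receptor for bacteria, was measured at 7.06, 6.31, 6.14 and 6.63 in mice 1 to 4. It was 1.62-fold higher in mouse 1 than in the mean of the other mice, a difference of 0.70 that was 0.72 after correction for the compression of this array. Vsig4, a receptor for complement C3 fragments, was measured at 7.90, 8.37, 8.55 and 8.53. Mouse 1 differed by -0.58 from the mean of the other mice, which lay within 1.13-fold of each other. After the correction this difference was -0.36, and the range of Vsig4 was 1.33-fold, below the 1.55-fold of Clec4f. The difference Vsig4 minus Clec4f within an array was -0.83, -0.07, 0.19 and -0.15, so that these markers of the same cells did not move together in mouse 1. For Cd163, the receptor for haptoglobin-bound haemoglobin, the value rounded to 5.90 in each of mice 1 to 3 and was 6.29 in mouse 4.

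Of the recruited markers, Cx3cr1 was the one above background on all arrays. Cx3cr1, the receptor for fractalkine on monocytes and macrophages, was measured at 5.75, 6.24, 6.52 and 6.12 in mice 1 to 4, with a mean of 6.16 ± 0.32 (SD, n = 4 mice). Mouse 1 was lowest, with a difference of -0.54 from the mean of the others, and mouse 3 was highest. Ccr2, the receptor that guides monocytes to Ccl2, was measured at 3.89, 4.98, 4.86 and 4.85 and exceeded the background limit on 0 of 4 arrays. Itgax, which encodes CD11c, was measured at 5.30, 5.65, 5.69 and 5.37 and exceeded the limit on 3 arrays. Itgam, which encodes CD11b, was measured at 5.84, 4.81, 4.89 and 5.14 and exceeded it in mouse 1 alone. A level for Ccr2, Itgam and Itgax in all mice was therefore not established at the sensitivity of these probe sets. A further 3 probe sets named both Itgam and Rpl35 and were not used.

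The lipid-associated markers were higher in mice 2 and 3 than in mice 1 and 4. Mmp12, the macrophage elastase, had values of 5.57, 6.63, 6.81 and 5.79 in mice 1 to 4, and its range of 2.36-fold was still 2.03-fold without mouse 1. Gpnmb, a lysosomal glycoprotein of lipid-laden macrophages, was measured at 5.16, 5.99, 5.87 and 5.26 and exceeded the background limit in mice 2 and 3 only. Cd9, a tetraspanin that other liver cells also express, was measured at 7.80, 8.28, 8.17 and 7.91. In each of these genes, the values of mice 2 and 3 did not overlap with those of mice 1 and 4, an order also found in 29.0% of all genes. Trem2, a receptor for lipids and lipoproteins that defines these macrophages, varied little, with values of 6.05, 6.24, 6.31 and 6.20 and an SD of 0.11. Mice 2 and 3 were again the highest, but the range was 1.20-fold, and mice 2 to 4 lay within 1.08-fold.

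Among the genes that identify macrophages in general, Mpeg1 and Laptm5 were low in mouse 1, whereas the others differed by less than 1.5-fold. Mpeg1, a pore-forming protein of phagocytes, was measured at 7.33, 8.25, 8.13 and 8.16 in mice 1 to 4. Mouse 1 was 1.81-fold lower than the mean of the other mice, which lay within 1.09-fold of each other. Laptm5, a lysosomal membrane protein of blood cells, was measured at 6.97, 7.57, 7.62 and 7.34, a range of 1.57-fold with mouse 1 lowest. The other genes varied less. Adgre1, which encodes the F4/80 antigen, was measured at 6.78, 7.00, 7.12 and 6.87. Csf1r, the receptor for the growth factor that macrophages depend on, was measured at 7.94, 8.11, 8.16 and 8.35. Ptprc, the pan-leukocyte antigen CD45, was measured at 6.59, 6.90, 6.72 and 6.67. In all 3 genes mouse 1 was lowest, with ranges of 1.27-fold, 1.33-fold and 1.24-fold. Aif1, a calcium-binding protein of macrophages, was between 5.78 and 5.92 in all mice.

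The largest difference between mice among all 32 genes was found for the adaptor chain Fcer1g, through which activating Fc receptors signal. Fcer1g had values of 6.27, 7.53, 7.63 and 7.29 in mice 1 to 4, and mouse 1 was 2.32-fold lower than the mean of the others. Tyrobp, the adaptor through which Trem2 signals, was measured at 6.39, 7.16, 7.03 and 6.87, and mouse 1 was 1.55-fold lower. For Fcer1g and Tyrobp these differences of -1.21 and -0.63 were -1.11 and -0.52 after correction for the compression of the array. Fcgr2b, the inhibitory Fc receptor, which sinusoidal endothelium also expresses, was measured at 8.65, 9.19, 9.21 and 9.12. Fcgr3, a low-affinity activating receptor, was measured at 5.60, 6.09, 5.93 and 5.87. Fcgr1, the high-affinity receptor, was measured at 5.43, 5.91, 6.17 and 5.78 and fell short of the background limit in mouse 1. All 5 genes of this group were lowest in mouse 1. Fcgr2b and Fcgr3 are similar in sequence and lie near each other on chromosome 1, so that shared hybridization between them cannot be told apart from their own signal.

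The 3 genes of complement C1q, whose products assemble into 1 protein and which lie next to each other on chromosome 4, did not share a pattern. C1qa was measured at 8.09, 7.85, 7.98 and 7.91 in mice 1 to 4. C1qc was measured at 7.84, 7.75, 7.76 and 8.05. C1qb was measured at 8.00, 8.73, 8.78 and 8.49. Thus C1qb was 1.59-fold lower in mouse 1, whereas mouse 1 was highest for C1qa and differed by -0.01 from the mean of the other mice for C1qc. Within an array, C1qb minus C1qa was -0.09, 0.88, 0.80 and 0.58, a difference of -0.85 between mouse 1 and the others. After correction for the compression of the array, mouse 1 differed by -0.45 for C1qb and by 0.39 for C1qa. The range of C1qb was then 1.46-fold. The relation of these differences to the probes of each gene was not tested.

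Genes of the lysosome and of microbial killing were higher in mice 2 and 3 than in mice 1 and 4 in 5 of 6 cases, the exception being Cd14, beside 29.0% of all genes. Ctss, the lysosomal protease cathepsin S, was measured at 7.98, 8.64, 8.75 and 8.16 in mice 1 to 4. Cybb, the catalytic subunit of the phagocyte NADPH oxidase, was measured at 7.59, 7.96, 8.13 and 7.35, with mouse 4 lowest. Without mouse 1, the ranges of Ctss and Cybb were 1.51-fold and 1.72-fold, in both from mouse 4 to mouse 3. Ly86, which pairs with a Toll-like receptor homologue, was measured at 7.36, 8.01, 7.84 and 7.57. Cd68, a lysosomal glycoprotein used as a macrophage stain, was measured at 7.20, 7.76, 7.55 and 7.33. Lyz2, the lysozyme of myeloid cells, had values of 9.48, 9.34 and 9.29 in mice 2 to 4, and mouse 1 differed from their mean by -0.36. Ly86, Cd68 and Lyz2 were lowest in mouse 1 and highest in mouse 2. Of the scavenger receptors, Msr1 was measured at 7.05, 7.08, 7.35 and 7.20, and Mrc1, which sinusoidal endothelium also expresses, at 7.94, 8.14, 8.23 and 8.15. Both were lowest in mouse 1 and highest in mouse 3, within ranges of 1.23-fold and 1.22-fold.

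**Figure D2:**
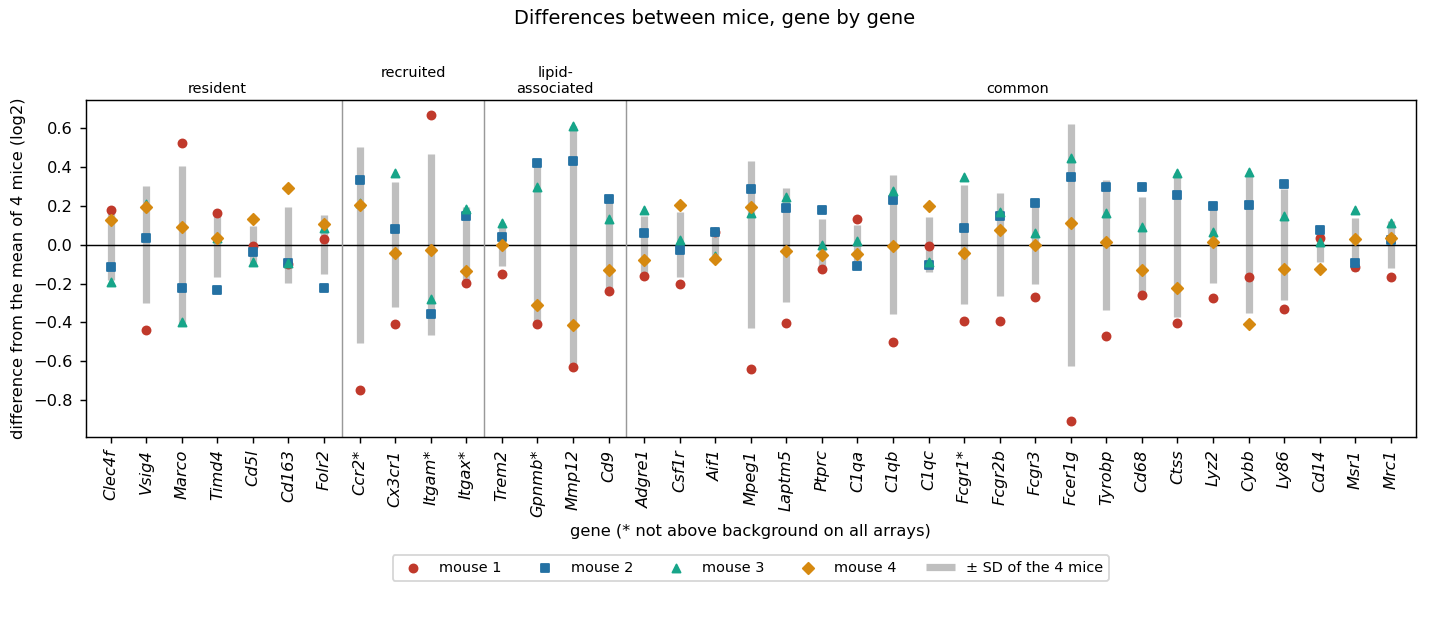
Difference of each mouse from the mean of the 4 mice for the 37 genes measured, on the log2 scale. Points are mice and grey bars are ± 1 SD; an asterisk marks the 5 genes that were not above background on all arrays. Mouse 1 lies below 0 in most common genes. Among the resident markers, it lies above 0 in Clec4f, Marco, Timd4 and Folr2. It lies below 0 in Vsig4, Cd163 and, slightly, Cd5l.

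To compare resident with recruited, lipid-associated and common markers, the median difference of each mouse from the mean of the other 3 was taken over the genes of a class that were above background. In mouse 1 this median was 0.04 for the 7 resident markers, -0.32 for the 3 lipid-associated markers and -0.35 for the 21 common genes, beside -0.54 for Cx3cr1. Over all genes above background it was -0.08. Within the resident class the differences of mouse 1 ranged from -0.58 for Vsig4 to 0.70 for Marco, and 4 of 7 genes were higher in mouse 1. Of the other 25 genes, 22 were lower in mouse 1 than in the mean of the other mice, as were 62.4% of all genes. The exceptions were C1qa, Aif1 and Cd14. Earlier results of these data had put macrophage genes low in mouse 1, so that the next count is not independent of them. The lowest value was found in mouse 1 in 22 of the 32 genes (68.8%), compared with 46.1% of all genes. By class, this was the case in 2 of 7 resident markers and in 20 of the other 25 genes.

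Because the values of mouse 1 were compressed, the median deviation of all genes in the same class of mean level was subtracted from each array. Thereafter the median difference of mouse 1 was 0.15 for the resident markers, -0.23 for the lipid-associated markers and -0.13 for the common genes. The lowest value was then found in mouse 1 in 15 of the 32 genes, compared with 31.8% of all genes. The number of resident markers higher in mouse 1 was 5 of 7, and that of the other genes lower in mouse 1 was again 22 of 25. Of all genes, 49.7% were lower in mouse 1 after this centring. Fcer1g, Mmp12, Mpeg1, Tyrobp, Cx3cr1, Marco and Cybb still differed by more than 1.5-fold between mice, whereas C1qb, Ctss, Laptm5, Ly86 and Vsig4 did not and Clec4f did, with a range of 1.55-fold. With 4 mice in 1 group, the difference between resident and other markers was not tested.

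**Figure D3:**
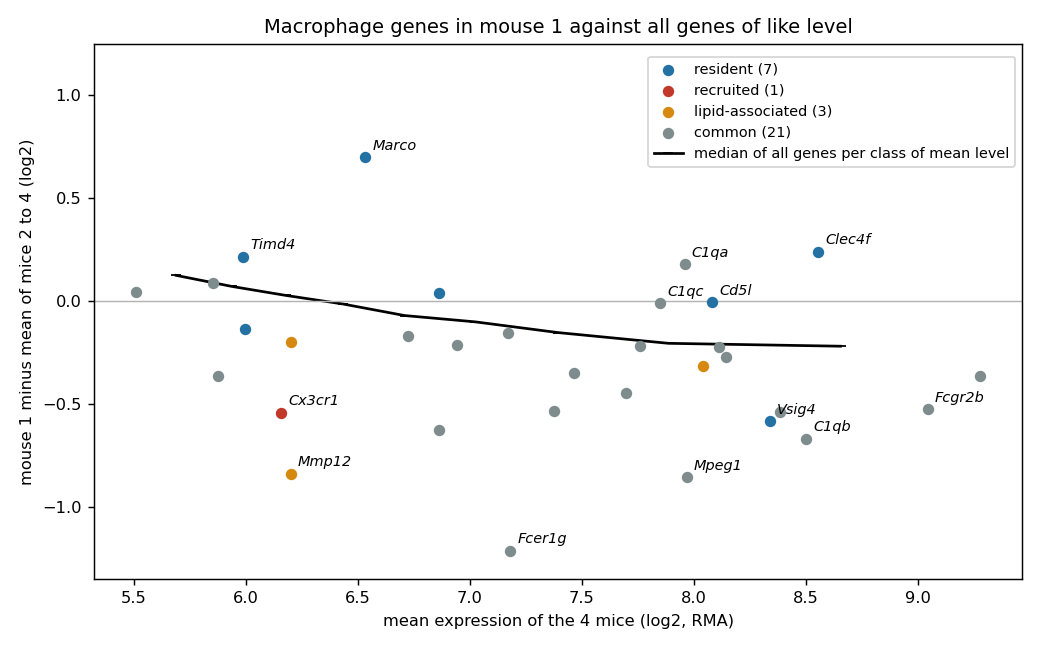
Difference of mouse 1 from the mean of mice 2 to 4 (log2) against the mean expression of the 4 mice (log2) for the 32 macrophage genes above background. The black line joins the median differences of all genes in 10 classes of mean level, of which the highest class lies outside the plot. Of the resident markers, Marco and Clec4f lie above the line and Vsig4 lies below it. Fcer1g, Mpeg1 and Mmp12 lie farthest below it.

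In mouse 4, the resident markers were higher more often than the other macrophage genes. All 7 were higher in mouse 4 than in the mean of the other mice, with differences from 0.05 for Timd4 to 0.39 for Cd163 and a median of 0.17. Of the other 25 genes, 9 were higher in mouse 4, beside 53.6% of all genes. Among these, the common genes Csf1r, C1qc and Mpeg1 had differences of 0.27, 0.27 and 0.26, larger than the resident median. The count of 7 resident markers was the same with arrays centred on their median, after quantile normalization and after centring within classes of mean level. In these settings, between 50.3% and 50.5% of all genes were higher in mouse 4. The SDs of the 7 resident markers between mice ranged from 0.09 for Cd5l to 0.40 for Marco.

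Mice 2 and 3 both lay above mice 1 and 4 in 17 of the 32 genes (53.1%), compared with 29.0% of all genes. This order was found in 0 of 7 resident markers, in Cx3cr1, in all 3 lipid-associated markers and in 13 of 21 common genes. The opposite order was seen for transcripts of pancreatic acinar cells, of which 9 of 11 listed genes were measured and above background. Their summed level on the linear scale was 3164 and 2607 in mice 1 and 4 and 653 and 825 in mice 2 and 3. The part of pancreatic tissue in the order of the macrophage genes was not tested. Hepatic stellate cell genes had a summed level of 3388, 5248, 5344 and 4333 over 10 of 10 genes in mice 1 to 4. Dcn, with the highest values of this list, weighs most in this sum. The median differences of the list were -0.31, 0.31, 0.15 and -0.12. In 7 of the 10 genes, mice 2 and 3 both lay above mice 1 and 4, the order of the macrophage genes. The same order was found in 8 of 12 hepatocyte genes. For the resident markers the summed level was 1318, 1235, 1277 and 1445, and for the common genes 3864, 5229, 5240 and 4701.

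**Figure D4:**
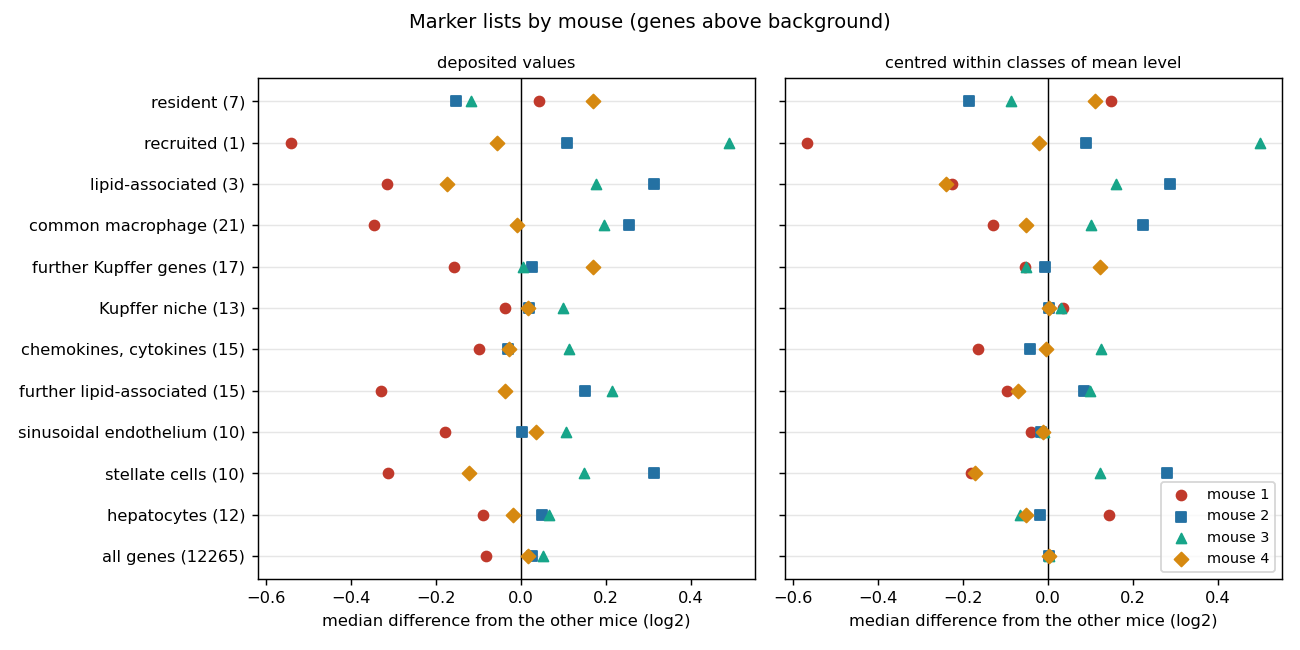
Median difference of each mouse from the mean of the other 3 mice (log2) for marker lists, with the number of genes above background in brackets. The left panel uses the deposited values and the right panel the values centred within classes of mean level. Resident markers lie highest in mouse 4 in the left panel and in mouse 1 in the right panel, and lipid-associated markers lie highest in mouse 2 in both.

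Further genes of Kupffer cells were examined as a separate list of transcription factors, iron handling genes and receptors. Of 20 genes, 19 were measured and 17 were above background, and 2 of these, Axl and Id3, exceeded the 1.5-fold range, a share close to the 12.9% of all genes. Axl, a receptor for apoptotic cells, had values of 6.56, 7.25, 7.14 and 6.99 in mice 1 to 4, and Id3, a transcriptional regulator needed for Kupffer cell identity, at 8.26, 7.64, 7.66 and 8.02. Axl was thus lowest and Id3 highest in mouse 1. The median difference of the list was -0.16, 0.03, 0.01 and 0.17 in mice 1 to 4, and 7 of 17 genes were highest in mouse 4, compared with 24.9% of all genes. Zeb2, a transcription factor of macrophages, was measured at 6.40, 6.94, 6.94 and 6.74. Nr1h3, which encodes the liver X receptor alpha, was measured at 8.65, 8.91, 8.98 and 9.02, while Spic, a factor of iron-recycling macrophages, exceeded the background limit on 0 arrays.

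Genes for signals that maintain Kupffer cells in their niche and for those that recruit monocytes were read against the shares over all genes, of which 61.5% were above background and 12.9% of these exceeded 1.5-fold. Of 14 niche genes, 13 were above background and 1 exceeded 1.5-fold, the adhesion molecule Icam1 with values of 6.35, 7.12, 7.18 and 6.79. Vcam1, another adhesion molecule, was measured at 6.55, 6.93, 6.99 and 6.73, and Dll4, a Notch ligand of endothelium, at 6.33, 5.77, 5.88 and 6.16. Icam1 and Vcam1 were lowest and Dll4 was highest in mouse 1. Of 22 chemokines, cytokines and related genes, 15 were above background and 2 exceeded 1.5-fold. These were Cxcl9, an interferon-induced chemokine for T cells, at 6.94, 8.36, 8.31 and 7.78, and Ccl6 at 6.22, 6.56, 6.86 and 6.43. Both were lowest in mouse 1, and the range of Cxcl9 was 2.68-fold. Ccl5, another chemokine for T cells and monocytes, was measured at 6.53, 6.93, 6.84 and 6.45. Ccl2, the ligand of Ccr2, was measured at 5.56, 5.54, 5.61 and 5.72, all of them close to the background limits. Il6 exceeded the limit on 0 arrays and Tnf on 1. Il1a and Il1b exceeded the limit on 4 arrays, with means of 5.71 and 5.61. The chemokine Ccl9 was well above it, with a mean of 8.84.

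Most further genes of lipid-associated macrophages had the order of Mmp12 and Gpnmb. Of 19 genes, 15 were above background, and mice 2 and 3 both lay above mice 1 and 4 in 12 of these 15, compared with 29.0% of all genes. The exceptions were Fabp5, Acp5 and Abca1. More than 1.5-fold between mice was found in 5 genes, namely Anxa2, Lpl, Cd36, Lgals3 and Fabp5. Anxa2, a phospholipid-binding annexin, was measured at 6.95, 7.91, 8.07 and 7.44 in mice 1 to 4, Lpl, the lipoprotein lipase, at 6.15, 7.05, 7.00 and 6.64, and Cd36, a fatty acid transporter, at 9.11, 9.85, 9.92 and 9.41. Each was lowest in mouse 1, and the ranges were 2.18-fold, 1.87-fold and 1.76-fold. Lgals3, which encodes galectin-3, was measured at 6.39, 7.16, 6.91 and 6.49, also with mouse 1 lowest. Fabp5, a fatty acid binding protein, had the opposite order, with 7.75, 7.17, 7.44 and 7.82 and a range of 1.56-fold. Fabp5 and Lgals3 were chosen for mention after their values were seen. Several genes of this list, among them Cd36 and Lpl, are also expressed by other cells of a fatty liver.

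Markers of other cells were measured to describe what else the tissue held. All 12 hepatocyte genes measured were above background, and their median difference from the other mice lay between -0.09 and 0.07. All 10 genes of sinusoidal endothelium were above background, with summed levels from 1850 in mouse 1 to 2168 in mouse 3. Of these genes 1 exceeded 1.5-fold, Lyve1 with values of 7.52, 8.28, 8.05 and 7.71, compared with 12.9% of all genes. Of 11 neutrophil genes 2 were above background, of 7 T cell genes 2, of 7 B cell genes 5, of 7 natural killer cell genes 1 and of 8 dendritic cell genes 3. Over all genes, 61.5% were above background. Of the B cell genes that passed, Blk, Pax5, Ighm and Cd22 had means of 5.72, 5.69, 5.79 and 5.60, close to the background limits. Cd79b passed by a larger margin, with a mean of 6.36, which lay 0.97 above the mean limit. Among the neutrophil genes that did not pass, S100a8 and Retnlg exceeded the limit on 0 arrays, Csf3r on 2, and Elane and Mpo on 3. Csf3r was measured at 6.39, 4.95, 5.35 and 5.27 in mice 1 to 4.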

How the data were processed

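The authors deposited 1 column of log2 values per mouse, from Mouse Gene 1.0 ST arrays hybridized with liver RNA of 4 aP2-SREBP-1c mice. The submitters' processing notes name RMA and the Affymetrix Expression Console. RMA subtracts background, equalizes the distributions of the arrays normalized together and summarizes the probes of a gene, which narrows differences shared by many genes. It is not stated in the sources used here which arrays were normalized jointly. Each column was assigned to its mouse through the labels, and 0 were left over.

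Of 35556 probe sets, 21789 had 1 symbol in the platform annotation, 1621 had several and 12146 were unnamed here. Only those with 1 symbol were used, with the probe set of the highest mean per gene. The rule for named genes took all members and, from each other list, the 3 genes above background with the largest SD. Genes needed to check a cell type were also taken. Lgals3, Fabp5, Acp5, Abca1, Nr1h3, Ccl2, Il6, Tnf, Cd79b, Csf3r, Elane, Mpo, Il1a, Il1b and Ccl9 were added after their values were seen. The acinar and hepatocyte lists are given by their medians. The members and lists, and the count of genes lowest in mouse 1, were chosen with earlier results of these data known. Means, SDs, ranges and differences from the mean of the other mice were computed in Python 3.11.15 (numpy 2.4.6, pandas 2.3.3, matplotlib 3.10.9), and the counting steps were tested on simulated data. No test between groups was made, since the mice form 1 group. Precision is limited by the number of arrays. At most 25 values were identical between any pair of arrays, and correlations across genes above background ranged from 0.974 to 0.993. Alternatives were median-centred arrays, quantile normalization, centring within 10 classes of mean level, background limits at the 90th and 99th percentile or on at least 2 arrays, no filter on low values, a 2-fold range, the mean of all probe sets or of all members, and leaving out each mouse.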

Additional observations from a re-analysis of the deposited data

Results flagged for a closer look

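In groups of 4 values, a gap between 1 mouse and the nearest other that takes up nearly the whole range occurs by chance in about 1 of 20 genes. It was found in 5.75% of all genes above background. Of the 37 macrophage genes measured 4 had such a gap, and 3 of these were above background. Cd163 was higher in mouse 4 than in the mean of the other mice by 0.39 on the log2 scale. In mouse 1, Mpeg1 differed from the mean of the other mice by -0.86 and Fcgr2b by -0.53. Ccr2 differed by -1.001 in mouse 1, but all its values were below the background limit. Of the 32 genes that the rule for named genes took from the other lists, 3 had such a gap. These genes were taken for the largest SD of their list, so that their count is not comparable with the share of all genes. The B cell kinase Blk was higher in mouse 1 by 0.63, Sox9, a transcription factor of bile duct cells, was higher in mouse 3 by 0.34, and the chemokine receptor Ccr7 had a difference of -0.37 in mouse 2.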

How the results depend on the processing

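Mean levels are nearly fixed by construction under these alternatives (centring keeps them and every member has 1 probe set) and say nothing about stability. The number of genes above background ranged from 25 with the 99th percentile as limit to 35 with the 90th percentile or with at least 2 arrays. The number with more than 1.5-fold between mice was 12, and it was 2 with a 2-fold range, 16 without a filter on low values, and between 3 and 11 when 1 mouse was left out, with 3 without mouse 1. It was 9 with median-centred arrays and 8 after quantile normalization or centring within classes of mean level. The number lowest in mouse 1 ranged from 15 (centring within these classes) to 26 (no filter). The median difference of the common genes in mouse 1 went from -0.35 to -0.13 with centring within these classes, which removes the compression of this array. In the deposited values, the median differences of the resident markers were no larger than the median SD of these genes (0.18). Under the alternatives some were larger, such as -0.27 in mouse 2 without mouse 3. Of 172 recomputed class medians, 6 changed sign. Those were the resident median in mouse 1 (-0.03 without mouse 2) and in mouse 3 (from -0.12 to 0.00 without mouse 4), the recruited one in mouse 4 (from -0.06 to 0.12 without mouse 3), and the common one in mouse 4 (from -0.01 to between 0.00 and 0.05 without mouse 2, without mouse 3 or with the 99th percentile). The resident median in mouse 4 lay between 0.11 and 0.20 under all alternatives. Quantities of mouse 1 could not be computed without it, and the rescaled arrays were not used for the background count. No paired analysis was possible because all mice form 1 group. The recruited class rests on Cx3cr1 and the lipid-associated class on 3 genes, and genes near the background limit allow no statement on their presence.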

Other observations

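Hepatic stellate cells, which store vitamin A and produce matrix, had 4 of 10 genes with more than 1.5-fold between mice. Over all genes above background, this share was 12.9%. Lrat, which esterifies retinol, was measured at 8.29, 9.23, 9.33 and 8.84 in mice 1 to 4. The matrix proteoglycan Dcn was measured at 10.74, 11.58, 11.63 and 11.25, and Col1a2, a chain of type I collagen, at 6.75, 7.53, 7.52 and 7.08. All 3 genes were lowest in mouse 1, as were 7 of the 10 stellate cell genes and 46.1% of all genes. Des, Ecm1 and Rgs5 were higher in mouse 1 than in the mean of the other mice. Of the genes of sinusoidal endothelium, Oit3 was measured at 7.62, 7.93, 8.15 and 7.82, and the scavenger receptor Stab1 at 7.24, 6.88, 6.98 and 7.24.

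Many genes of bile duct cells and of other leukocytes were closer to the background limits. Sox9, Ccr7, Cd3e and Cd79b lay farther above the mean limit, by 1.76, 1.08, 1.03 and 0.97. Krt19 and Krt7, keratins of bile ducts, were measured at 5.55, 6.13, 5.95 and 5.66 and at 5.90, 6.07, 5.95 and 5.87. The B cell factor Pax5 was measured at 5.83, 5.57, 5.42 and 5.93, and Ighm, the heavy chain of immunoglobulin M, at 5.90, 5.90, 5.77 and 5.58. For dendritic cells, Siglech was measured at 5.61, 5.94, 5.91 and 5.72, and Zbtb46 at 6.14, 6.08, 5.95 and 5.87. The T cell genes Cd3e and Cd8a were measured at 6.47, 6.23, 6.45 and 6.52 and at 5.56, 5.52, 5.72 and 5.70. Prf1, the perforin of cytotoxic cells, was measured at 6.12, 5.89, 6.01 and 5.98. Of the neutrophil genes, S100a9 was measured at 5.80, 5.67, 5.62 and 6.00, and Camp at 5.79, 5.72, 5.61 and 5.72. Ranges of these genes of bile ducts and leukocytes were below 1.5-fold.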
